A study of Mus musculus with 8 samples.

Results

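The genes described here are the ion and metal members of the solute carrier (Slc) superfamily in 11 families: Slc4, Slc8, Slc9, Slc12, Slc20, Slc24, Slc26, Slc30, Slc34, Slc39 and Slc41. They were chosen by symbol alone, as every symbol of the form family, letter a and number, with Slc26a3 and Slc9a3 left out by that rule. This gave 77 genes, carried by 401 annotated transcripts, of the 35963 gene symbols in the count table. The measurement was bulk RNA sequencing of colonic epithelial cells, released with a buffer from the proximal colon of mice aged 4 weeks. The 4 control libraries came from Ccna2 fl/fl mice, in which Ccna2 carries the sites that Cre recombinase acts on. The 4 libraries labelled Ccna2-KO came from Ccna2 fl/fl vil-Cre mice, which carry the same alleles together with Cre driven by the villin promoter. That promoter is active in intestinal epithelium and not in the immune or stromal cells that an isolate can also hold. The genotype field of the labels calls the controls wild type and the other group Ccna2-/-. No source used here gives the exons removed, the sexes, or whether each library came from its own mouse. The p-values therefore cover only the spread between libraries, which may be technical.

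Slc proteins move ions and nutrients across membranes along or against gradients set by pumps such as the sodium-potassium ATPase. In colonic epithelium, exchangers of sodium for protons and of chloride for bicarbonate absorb salt and set pH, and a sodium-potassium-chloride cotransporter on the basolateral side loads the cell with the chloride that channels secrete. Zinc enters the cytosol through the Slc39 (ZIP) family and leaves it, to the outside or into vesicles, through the Slc30 (ZnT) family, while Slc20 and Slc34 carry phosphate with sodium. Slc8 and Slc24 exchange sodium for calcium, and Slc41 proteins are magnesium carriers.

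Library totals were 27162083 to 34386731 estimated counts, and the chosen genes took 0.395% (control replicate 1) to 0.486% of the gene counts. Ccna2, the targeted gene, did not separate the groups: it measured 27.6 ± 18.7 CPM (counts scaled to library size, SD, n = 4) in controls and 21.9 ± 5.46 CPM in Ccna2-KO libraries. The difference was -0.33 ± 0.41 (SE) on the log2 scale (edgeR quasi-likelihood test, adjusted p = 0.673). Without control replicate 1 it was 0.24. Directions below therefore rest on the labels. The library numbers in the labels form a low set (control replicates 2, 3 and 4 with Ccna2-KO replicate 4) and a high set (control replicate 1 with Ccna2-KO replicates 1, 2 and 3). No source used here says what these numbers stand for. Control replicate 1 lay outside the range of the other 7 libraries for 32 of the 55 chosen genes tested (58.2%) and for 51.4% of all genes tested. The 10 epithelial marker genes summed to 22398 to 25679 CPM in controls and 22241 to 29662 in Ccna2-KO libraries, and none passed the test. All 8 T cell markers were lower in the Ccna2-KO libraries (summed 23.97 to 93.97 against 10.2 to 18.4 CPM), as were 4 of 6 enteroendocrine markers (158 to 214 against 30.1 to 56.7 CPM). Of the crypt stem markers 2 of 3 tested were lower (7.94 to 28.99 against 1.73 to 7.02 CPM), as were 2 of 5 tuft markers (8.70 to 19.3 against 8.01 to 9.89 CPM). Of 5 cycling markers 3 were higher (147 to 306 against 480 to 722 CPM). Lower and higher here mean that the gene passed the test. Of the markers tested, 1 of 7 macrophage, 1 of 7 erythroid and 1 of 1 smooth muscle markers were also higher. The 1 endothelial marker tested was lower. None passed in the B cell, fibroblast, goblet, or enteric neuron and glia lists. In a bulk sample, fewer cells of a type and less RNA per cell cannot be told apart. The part of these cell types in the results below was not tested.

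A gene was called when its Benjamini-Hochberg adjusted p was under 0.05 over the 15893 genes that passed a filter on low counts. Of the 77 transporters, 55 entered the test and 6 were called (10.9%), against 12.1% of all genes tested. Of these calls, 4 were higher in the Ccna2-KO libraries (Slc26a7, Slc39a4, Slc4a11 and Slc34a2), that is 7.27% against 6.40% of all genes. Both calls in the other direction were Slc26a11 and Slc24a3, 3.64% against 5.71% of all genes. The share of transporters called was thus near that of all genes. The groups did not overlap for 7 of the 55 (12.7%), against 19.0% of all genes tested. The median log2 fold change (Ccna2-KO over control) was -0.11 for the 55 transporters and -0.01 for all genes, and the median size of the change was 0.32 against 0.24. An estimate above 0 was found for 20 of the 55 transporters (36.4%), against 48.1% of all genes, and one below 0 for the other 35. Of the 55, 39 (70.9%) moved by less than 0.5 in either direction, against 74.8% of all genes. The 6 called genes belong to different families or to opposite directions within a family. None of them shares exon bases with another annotated gene, whereas 18 of the 55 do, most of them with a gene on the opposite strand (Slc4a2 with Fastk, for example). No source used here says whether the libraries kept the strand, so reads of such pairs may be mixed.

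**Figure D1:**
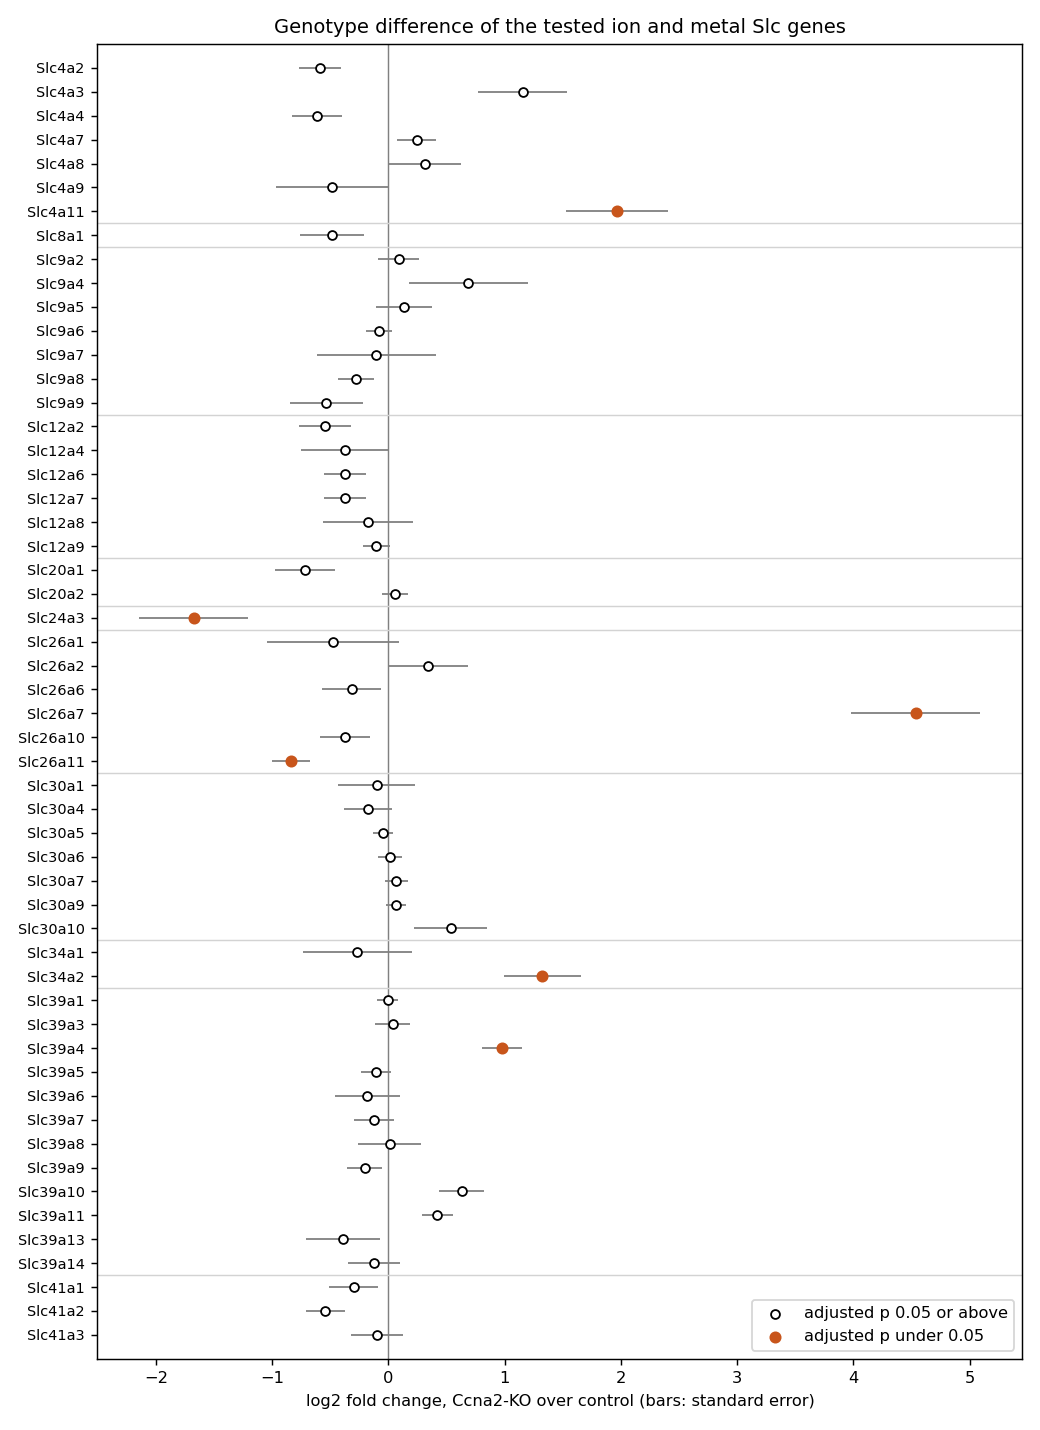
Log2 fold change (Ccna2-KO over control, horizontal axis) of 54 of the 55 transporters tested, ordered by family; points are edgeR estimates and bars their standard errors, with the 6 genes called at adjusted p under 0.05 in colour. Slc26a7 (4.54), Slc4a11 (1.97) and Slc34a2 (1.33) had the highest estimates and Slc24a3 (-1.68) the lowest, while most of the others lay within 0.5 of 0.

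Among the zinc importers, Slc39a4 rose. It encodes ZIP4, the apical transporter that takes up dietary zinc in the intestine, and it lies on chromosome 15 between positions 76612383 and 76618506 on the minus strand (GRCm38). Its level was 254, 340, 332 and 244 CPM in control replicates 1 to 4 and 530, 516, 746 and 513 CPM in Ccna2-KO replicates 1 to 4. Every Ccna2-KO library stood above every control, and replicate 3 stood above the other Ccna2-KO libraries. The means were 292 ± 50.2 and 576 ± 113 CPM, a log2 fold change of 0.98 ± 0.17 with adjusted p = 0.0073. The call held in each fit without a single library, with adjusted p between 0.0040 and 0.0254. With the number set as a term in the fit, the value was 0.99 with adjusted p = 0.0087. A single annotated transcript, NM_028064.2, held 95.4% of its counts, and it rose by itself from 278 to 557 CPM (1.001 ± 0.170 on the log2 scale, adjusted p = 0.0461 over all transcripts).

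Compared per kilobase of transcript, which could be done for 23 of the transporters, Slc39a4 was at the top of the order. The other tested transporters had under 80% of their counts on transcripts with a matched length and were not ranked. Among these were the abundant Slc4a2 and Slc20a1 (control mean 383 CPM). It stood at 102 ± 17.5 CPM per kb in controls and 201 ± 38.97 in Ccna2-KO libraries. The sodium-proton exchanger Slc9a2 came next at 87.4 ± 19.1 in controls, which did not differ from Slc39a4 beyond the spread. The sulfate carrier Slc26a2 stood at 65.0 ± 28.8 and the zinc carrier of the early secretory pathway Slc39a7 at 61.3 ± 18.3 CPM per kb in controls. Slc39a1, a plasma membrane zinc importer, stood at 36.8 ± 1.45, and the lowest of the 23 was Slc4a8 at 0.14 CPM per kb.

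The other 11 Slc39 genes tested did not pass. Slc39a10, a plasma membrane zinc importer, measured 9.48, 6.86, 10.1 and 9.94 CPM in controls and 15.9, 15.6, 15.1 and 9.65 CPM in Ccna2-KO replicates 1 to 4. Replicate 4 lay within the controls and the others above them (0.63 ± 0.19, adjusted p = 0.0659). Slc39a11 measured 76.1 ± 14.9 and 102 ± 4.85 CPM (0.42 ± 0.13, adjusted p = 0.0735). Its control replicate 1 stood at 98.1 CPM, inside the Ccna2-KO range of 95.5 to 107 CPM, and its other controls stood at 65.7 to 71.7 CPM. Without control replicate 1 both passed, Slc39a11 with adjusted p = 0.000777 and Slc39a10 with 0.0390. With Slc39a4, that fit called 3 genes of the family higher, and it called 1 lower. Slc39a1 (-0.01), Slc39a3 (0.04) and Slc39a8 (0.01) had estimates close to 0. Summed over the family, the level was 1030 ± 51.3 CPM in controls and 1293 ± 130 CPM in Ccna2-KO libraries, with Slc39a4 the gene that passed the test. The family did not rise as a whole: the median log2 fold change of its 12 tested genes was -0.06, with 5 above 0 and 7 below.

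None of the 7 genes tested in the Slc30 family, most of them zinc carriers, passed, and the median of their log2 fold changes was 0.01. Slc30a4, a carrier of zinc into vesicles and the most abundant of them, measured 88.5, 161, 165 and 162 CPM in controls and 132, 113, 109 and 155 CPM in Ccna2-KO replicates 1 to 4. Control replicate 1 was the lowest of all 8 libraries and the other controls the 3 highest (-0.18 ± 0.21, adjusted p = 0.646). Slc30a1, which exports zinc across the plasma membrane, measured 76.0 ± 29.8 and 71.0 ± 20.7 CPM (-0.10 ± 0.33, adjusted p = 0.890). Slc30a10, a manganese exporter, measured 19.2 ± 7.42 and 27.8 ± 7.35 CPM (0.54 ± 0.31, adjusted p = 0.322). Slc30a5, Slc30a6, Slc30a7 and Slc30a9 had estimates between -0.05 and 0.07.

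Zinc-responsive transcription runs through the factor MTF1, which binds a short metal response element. The element was searched as TGCACNC or TGCGCNC on both strands in the 250 bases before the start sites of a RefSeq table (GRCm38.p6), where 60 of the 77 transporters were found. Slc39a4, Slc26a7, Slc26a11 and Slc4a11 are not among these 60 and were not searched. At least 1 match was present in 7032 of 32851 windows (21.4%), in 26 of 76 windows of the transporters (34.2%) and in 11 of 25 windows of Slc30 and Slc39 genes (44%). Some genes have several windows, some of them overlapping, and base composition was not matched. The difference between these shares was not tested. The windows below are those of Slc34a2 and Slc24a3, the called genes that were searched, and both hold a match. They read 5′ to 3′ towards the gene start, with the matched bases in capitals, and lie at chr5:53049103-53049352 and chr2:145167525-145167774, both on the plus strand. Slc24a3 has a second listed start, whose window holds no match.
Slc34a2: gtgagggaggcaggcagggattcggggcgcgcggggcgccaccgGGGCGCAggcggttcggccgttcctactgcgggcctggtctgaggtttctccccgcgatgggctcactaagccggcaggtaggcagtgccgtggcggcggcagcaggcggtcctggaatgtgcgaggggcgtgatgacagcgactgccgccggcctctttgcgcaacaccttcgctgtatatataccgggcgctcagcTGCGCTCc
Slc24a3: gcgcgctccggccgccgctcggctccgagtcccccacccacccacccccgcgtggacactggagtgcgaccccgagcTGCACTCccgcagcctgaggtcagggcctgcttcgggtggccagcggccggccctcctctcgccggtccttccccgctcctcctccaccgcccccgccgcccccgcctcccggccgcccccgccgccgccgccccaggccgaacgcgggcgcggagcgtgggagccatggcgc
Slc34a2 held 2 matches, 206 and 8 bases before the start, and Slc24a3 held 1 at 173 bases before its first start. A match is a description of letters and does not show that the factor binds there.

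**Figure D2:**
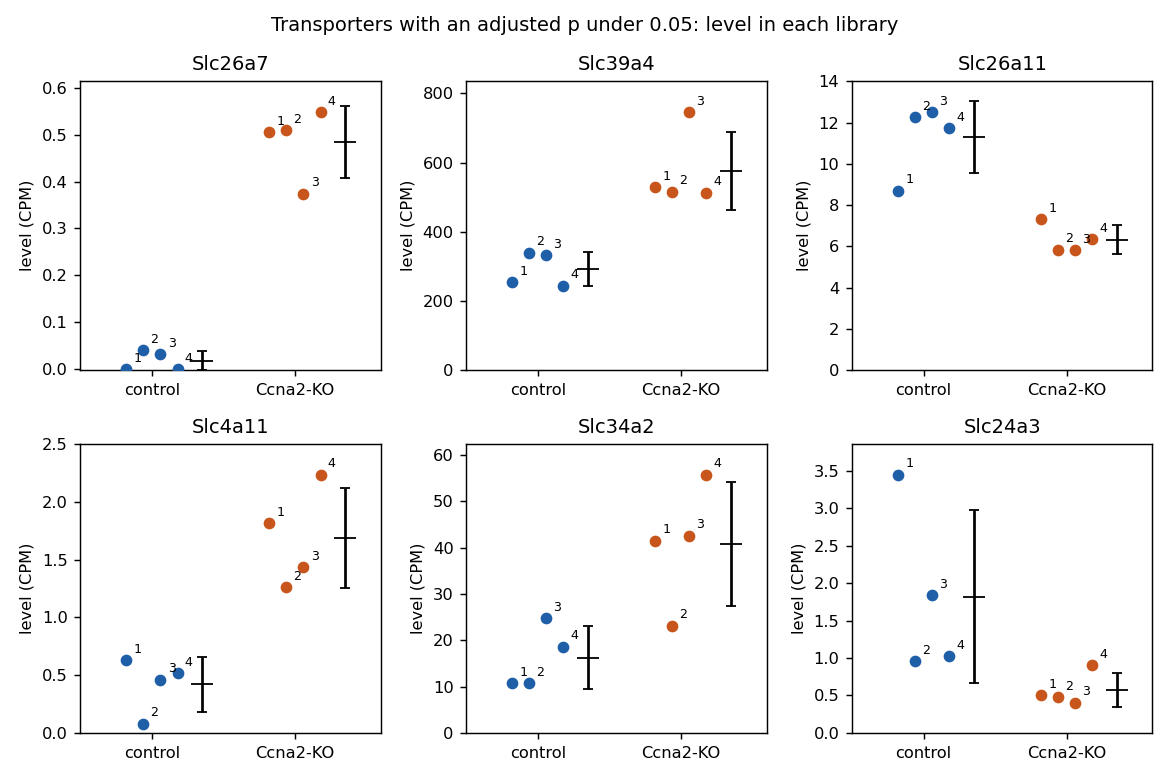
CPM (vertical axis, 1 panel per gene) of the 6 called transporters in each of the 8 libraries, 4 control and 4 Ccna2-KO; points are libraries with their replicate number, and the bars beside them give mean ± SD. The groups are apart for Slc26a7, Slc39a4, Slc26a11, Slc4a11 and Slc24a3 and overlap for Slc34a2, where 1 control (24.8 CPM) lies above the lowest Ccna2-KO library (23.2 CPM).

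Among the phosphate carriers, Slc34a2 rose and none of the others passed. Slc34a2 encodes NaPi-IIb, the apical sodium-phosphate cotransporter of the small intestine and lung, and lies on chromosome 5 between positions 53049353 and 53071664 on the plus strand. It measured 10.7, 10.8, 24.8 and 18.6 CPM in controls and 41.5, 23.2, 42.6 and 55.7 CPM in Ccna2-KO replicates 1 to 4. Only Ccna2-KO replicate 2 fell within the range of the controls. The means were 16.2 ± 6.79 and 40.8 ± 13.4 CPM, a log2 fold change of 1.33 ± 0.33 with adjusted p = 0.0307. This call was lost without control replicate 2 (adjusted p = 0.0766) or 4 (0.0653) and without Ccna2-KO replicate 1 (0.0689), 3 (0.0786) or 4 (0.0690). Slc20a1 (PiT-1), a widely expressed phosphate carrier, measured 568, 356, 398 and 211 CPM in controls and 260, 229, 188 and 255 CPM in Ccna2-KO libraries. Control replicate 4 lay among the Ccna2-KO libraries and the other 3 controls above them (-0.72 ± 0.26, adjusted p = 0.111). Slc20a1 was called in 1 of the 8 fits without a single library, the fit without control replicate 4 (-0.92, adjusted p = 0.0265). That fit leaves out the control that overlapped the Ccna2-KO libraries, and it called 9.09% of the transporters and 7.35% of all genes tested. In the other fits without a single library the adjusted p was up to 0.262. Slc20a2 (PiT-2) measured 19.1 ± 2.17 and 19.9 ± 1.05 CPM.

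Among the anion exchangers of the Slc26 family, Slc26a7 rose from near 0 and Slc26a11 fell. Slc26a7, a chloride and anion transporter known from stomach, kidney and thyroid, lies on chromosome 4 between positions 14502430 and 14621946 on the minus strand. It had 0, 1, 1 and 0 counts in control replicates 1 to 4 and 15, 17, 12 and 14 counts in Ccna2-KO replicates 1 to 4. The groups were wide apart, at a level of about 0.485 CPM in the Ccna2-KO libraries. The summed 2 and 58 counts give a ratio of 28.7 after scaling, with a 95% exact interval of 7.59 to 243 that covers counting error only. The adjusted p was 0.0016, and the fitted log2 value of 4.54 depends on the prior count. Slc26a7 passed the filter on low counts, about 0.325 CPM in 4 libraries, only through the Ccna2-KO libraries (0 of 4 controls reached it). It could therefore enter the test only as a gene higher in that group, and its call is no support for a direction among the transporters. Slc26a11, a chloride and sulfate transporter, lies on chromosome 11 between positions 119355509 and 119381076 on the plus strand. It measured 8.71, 12.3, 12.5 and 11.8 CPM in controls and 7.31, 5.85, 5.80 and 6.35 CPM in Ccna2-KO libraries. All Ccna2-KO libraries lay below all controls, with means of 11.3 ± 1.76 and 6.33 ± 0.70 CPM (-0.84 ± 0.16, adjusted p = 0.0105).

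Slc26a2, the sulfate carrier that cells need for sulfation of their glycans, was the most abundant Slc26 gene. It measured 184, 649, 669 and 530 CPM in controls and 681, 567, 552 and 779 CPM in Ccna2-KO libraries. Control replicate 1 was far below the rest, and the other controls overlapped the Ccna2-KO libraries (0.34 ± 0.34, adjusted p = 0.583). With the number set as a term the value was 1.02 with adjusted p = 0.0401. The oxalate and bicarbonate exchanger Slc26a6 measured 1.90 ± 0.23 and 1.53 ± 0.46 CPM (-0.32 ± 0.26, adjusted p = 0.488).

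Of the 7 genes tested in the Slc4 family, most of them bicarbonate carriers, Slc4a11 rose. It encodes a membrane protein linked to water and proton movement, best known from the corneal endothelium, and lies on chromosome 2 between positions 130684107 and 130697519 on the minus strand. It measured 0.627, 0.080, 0.461 and 0.515 CPM in controls and 1.82, 1.26, 1.44 and 2.24 CPM in Ccna2-KO libraries. The groups did not overlap (0.42 ± 0.24 and 1.69 ± 0.43 CPM, 1.97 ± 0.44, adjusted p = 0.0205). The call was lost without control replicate 3 (adjusted p = 0.0547) or 4 (0.0507) and without Ccna2-KO replicate 1 (0.0562). The chloride-bicarbonate exchanger Slc4a2 (AE2), found on the basolateral side of many epithelia, measured 326, 556, 526 and 491 CPM in controls and 318, 265, 301 and 379 CPM in Ccna2-KO libraries. Control replicate 1 lay within the Ccna2-KO libraries and the other controls above them (-0.59 ± 0.18, adjusted p = 0.0659). The sodium-bicarbonate cotransporter Slc4a4 (NBCe1) had a similar layout, with 55.8 CPM in control replicate 1, 102 to 115 in the other controls and 55.9 to 71.1 in Ccna2-KO libraries (-0.61 ± 0.21, adjusted p = 0.0990). Without control replicate 1 both passed, Slc4a2 at -0.73 (adjusted p = 0.0026) and Slc4a4 at -0.80 (adjusted p = 0.000668). Slc4a3 (AE3) measured 0.24 ± 0.08 and 0.54 ± 0.23 CPM and did not pass (1.15 ± 0.38, adjusted p = 0.0830). It reached the level of the low count filter, about 0.325 CPM, in 1 control and in all 4 Ccna2-KO libraries. It thus entered the test mainly through the group where it was higher. Slc4a7, a sodium-bicarbonate cotransporter, measured 112 ± 11.9 and 133 ± 33.9 CPM (0.24 ± 0.17, adjusted p = 0.415).

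None of the 6 genes tested in the Slc12 family, which holds the cation-chloride cotransporters, passed, and their median was -0.37. All 6 estimates were below 0 with each of the 3 scalings tried, but Slc12a8 was above 0 without control replicate 1 and Slc12a4 was at 0.0039 with the number set as a term. Slc12a2 (NKCC1), the basolateral loader of chloride for secretion, measured 226, 164, 173 and 248 CPM in controls and 145, 169, 156 and 84.5 CPM in Ccna2-KO libraries. The groups overlapped at 164 to 169 CPM, and Ccna2-KO replicate 4 was the lowest library (-0.55 ± 0.22, adjusted p = 0.151). With the number set as a term it was called at -0.87 with adjusted p = 0.0170. Slc12a8, a cotransporter relative, measured 131 CPM in control replicate 1, 43.6 to 59.1 in the other controls and 30.4 to 83.2 in Ccna2-KO libraries (-0.18 ± 0.39, adjusted p = 0.827). It was called with the number set as a term (-0.80, adjusted p = 0.0034) and turned to 0.28 (adjusted p = 0.539) without control replicate 1. Summed over the family, the level was 578 ± 32.2 CPM in controls and 440 ± 39.6 CPM in Ccna2-KO libraries.

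At the level of single annotated transcripts, 173 transcripts of 50 transporters were tested and 2 passed (1.16%), against 0.930% of all 38384 transcripts tested (0.591% higher and 0.339% lower). One was the main transcript of Slc39a4 and the other was XM_006517171.2 of Slc12a7, which encodes the potassium-chloride cotransporter KCC4. The latter was singled out after its values were seen. It measured 9.45, 13.6, 19.4 and 16.1 CPM in controls and 1.47, 4.17, 3.65 and 2.29 CPM in Ccna2-KO libraries. The groups did not overlap (14.7 ± 4.21 and 2.89 ± 1.24 CPM, -2.34 ± 0.38, adjusted p = 0.0436). The main transcript NM_011390.2 did not pass (-0.22 ± 0.17, adjusted p = 0.749), nor did the gene as a whole (-0.37 ± 0.18, adjusted p = 0.229). For the gene, control replicate 1 (124 CPM) lay below all other libraries. The other controls (208 to 218 CPM) lay above the Ccna2-KO libraries (132 to 164 CPM). Without control replicate 1 the gene was called at -0.53 with adjusted p = 0.0038, so its fall may not be confined to this transcript. The main transcript took 83.7 ± 1.46% of the Slc12a7 counts in controls and 91.7 ± 1.83% in Ccna2-KO libraries. Reads that fit several transcripts are shared between them by estimation, so a change of share between transcripts of a gene is less certain than a change of the gene.

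**Figure D3:**
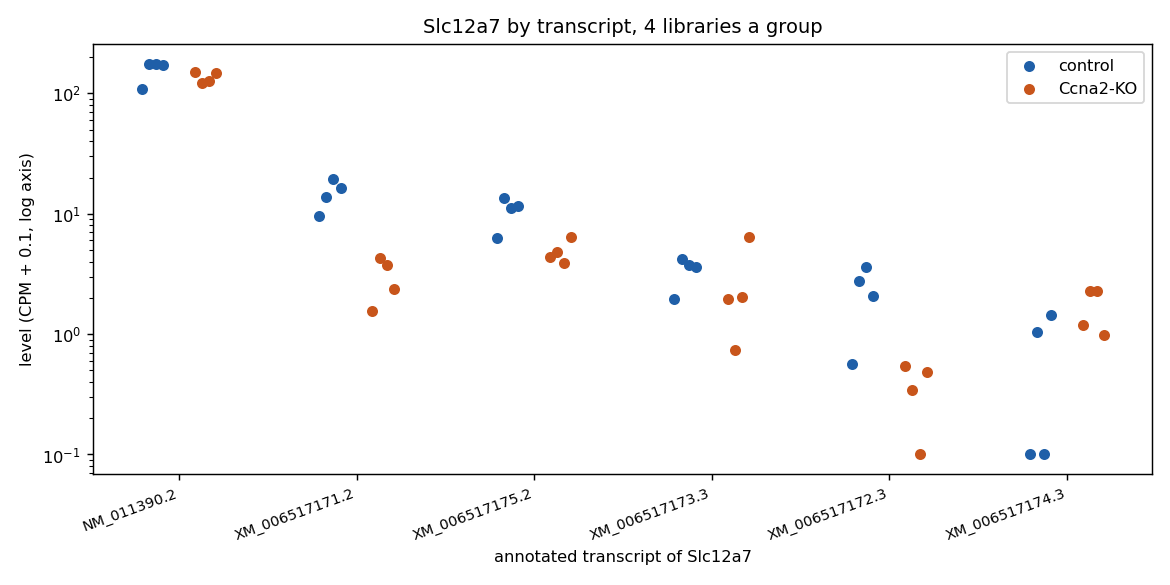
CPM + 0.1 (vertical axis, log scale) of 6 annotated Slc12a7 transcripts (horizontal axis); points are the 4 control and 4 Ccna2-KO libraries. XM_006517171.2 lies between 9.45 and 19.4 CPM in the controls and between 1.47 and 4.17 CPM in the Ccna2-KO libraries, while the main transcript NM_011390.2 overlaps between groups.

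None of the 8 sodium-proton exchangers of the Slc9 family passed, with a median log2 fold change of -0.09. Slc9a2 (NHE2), an apical exchanger and the most abundant of them, measured 322, 536, 495 and 401 CPM in controls and 479, 420, 414 and 552 CPM in Ccna2-KO libraries. The groups overlapped over most of their range (0.09 ± 0.17, adjusted p = 0.806). Slc9a8, an exchanger of the apical membrane and Golgi, measured 64.2 ± 5.78 and 52.8 ± 11.6 CPM (-0.28 ± 0.16, adjusted p = 0.289).

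Of the calcium exchangers, Slc24a3 fell and Slc8a1 did not pass. Slc24a3 (NCKX3), which exchanges sodium for calcium and potassium, lies on chromosome 2 between positions 145167775 and 145642166 on the plus strand. It measured 3.45, 0.958, 1.85 and 1.03 CPM in controls and 0.505, 0.480, 0.406 and 0.902 CPM in Ccna2-KO libraries. The groups were apart by a narrow gap between 0.902 and 0.958 CPM, and control replicate 1 was the highest library. The means were 1.82 ± 1.16 and 0.57 ± 0.22 CPM (-1.68 ± 0.47, adjusted p = 0.0461). The call was lost in limma voom (adjusted p = 0.0611), without control replicate 3 (0.0928) and without Ccna2-KO replicate 1 (0.123), 2 (0.129) or 3 (0.131). Slc8a1 (NCX1), the sodium-calcium exchanger of the plasma membrane, measured 65.1, 184, 166 and 150 CPM in controls and 97.7, 92.1, 93.5 and 121 CPM in Ccna2-KO libraries. Control replicate 1 was below all other libraries (-0.48 ± 0.27, adjusted p = 0.308). Without it Slc8a1 was called at -0.72 with adjusted p = 0.0020, and with the number set as a term the value was 0.04.

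The 3 Slc41 magnesium carriers had estimates below 0 and none passed. Slc41a2 measured 16.4, 11.4, 11.7 and 10.1 CPM in controls and 8.66, 9.20, 8.71 and 7.49 CPM in Ccna2-KO libraries. All Ccna2-KO libraries were below all controls (-0.54 ± 0.17, adjusted p = 0.0680). It passed with the number set as a term (adjusted p = 0.0050) and without control replicate 1 (0.0442). Slc41a1, the plasma membrane magnesium exporter, measured 14.1 ± 2.71 and 11.4 ± 2.77 CPM (-0.30 ± 0.21, adjusted p = 0.413).

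**Figure D4:**
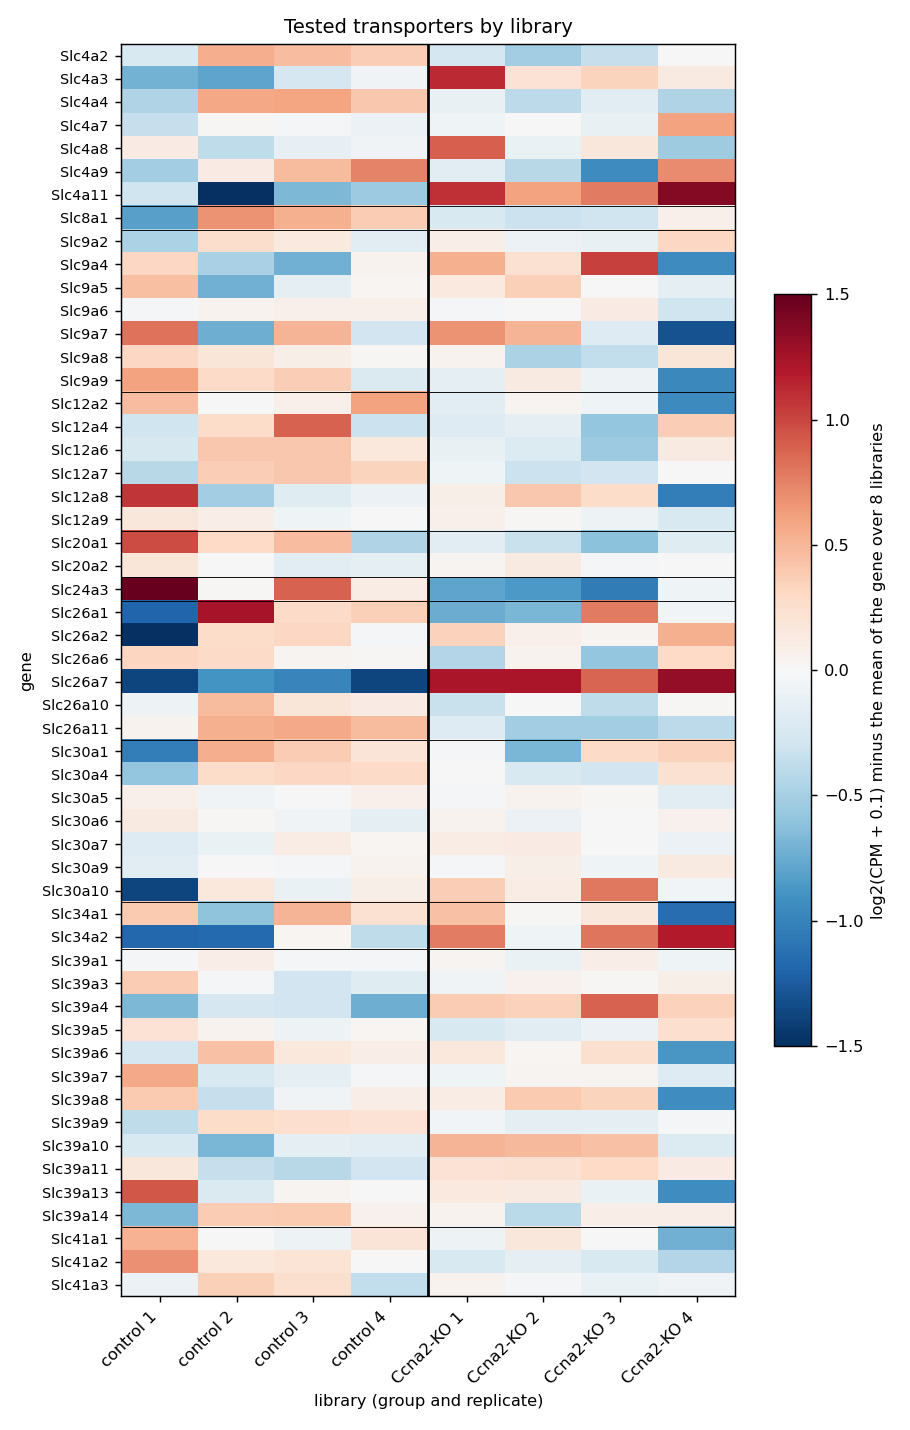
Heat map of 54 of the 55 transporters tested (vertical axis, by family) in the 8 libraries (horizontal axis, grouped by genotype); colour is log2(CPM + 0.1) minus the mean of the gene over all libraries, limited at 1.5 in each direction. Control replicate 1 stands apart from the other controls for many genes, for 32 of the 55 outside the range of the other 7 libraries.

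Several transporters that did not pass had 1 control that differed from the rest. Without control replicate 1, 16 of the 55 were called (29.1%, 6 higher and 10 lower) against 28.5% of all genes tested (15.1% higher and 13.4% lower). All 6 genes called with the 8 libraries were among the 16. With the number set as a term, 13 of 55 were called (23.6%, 6 higher and 7 lower) against 18.2% of all genes (9.29% higher and 8.90% lower), again with all 6. DESeq2 called 6 transporters higher and 5 lower, against 18.6% of all genes (9.56% higher and 9.01% lower). Between the number sets, with genotype in the fit, 17 of the 55 differed (30.9%) against 22.3% of all genes. In the high set 7 were higher (12.7%, against 12.9% of all genes) and 10 lower (18.2%, against 9.43%), and none of the 6 called transporters was among these 17. Each set holds a single library of 1 genotype, and no test was run within a set. The ratio of Ccna2-KO to control means in the low and the high set was 1.68 and 2.35 for Slc39a4, 3.09 and 3.33 for Slc34a2, and 6.35 and 2.40 for Slc4a11. It was 0.522 and 0.726 for Slc26a11 and 0.706 and 0.134 for Slc24a3. For Slc26a7 it was 23.3 in the low set, while control replicate 1, the control of the high set, had 0 counts. The direction was the same in both sets for each of these genes. For Slc26a7, Slc39a4, Slc26a11, Slc4a11 and Slc24a3 the groups do not overlap, so any split of the libraries gives the same direction. All 6 were also chosen by a call on these same libraries, so this agreement is no further support for the calls. For 15 of the 55 transporters the direction with the set term was opposite to that without it. In edgeR's unadjusted test, 15 of the 55 had p under 0.05 (27.3%), against 26.3% of all genes.

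**Figure D5:**
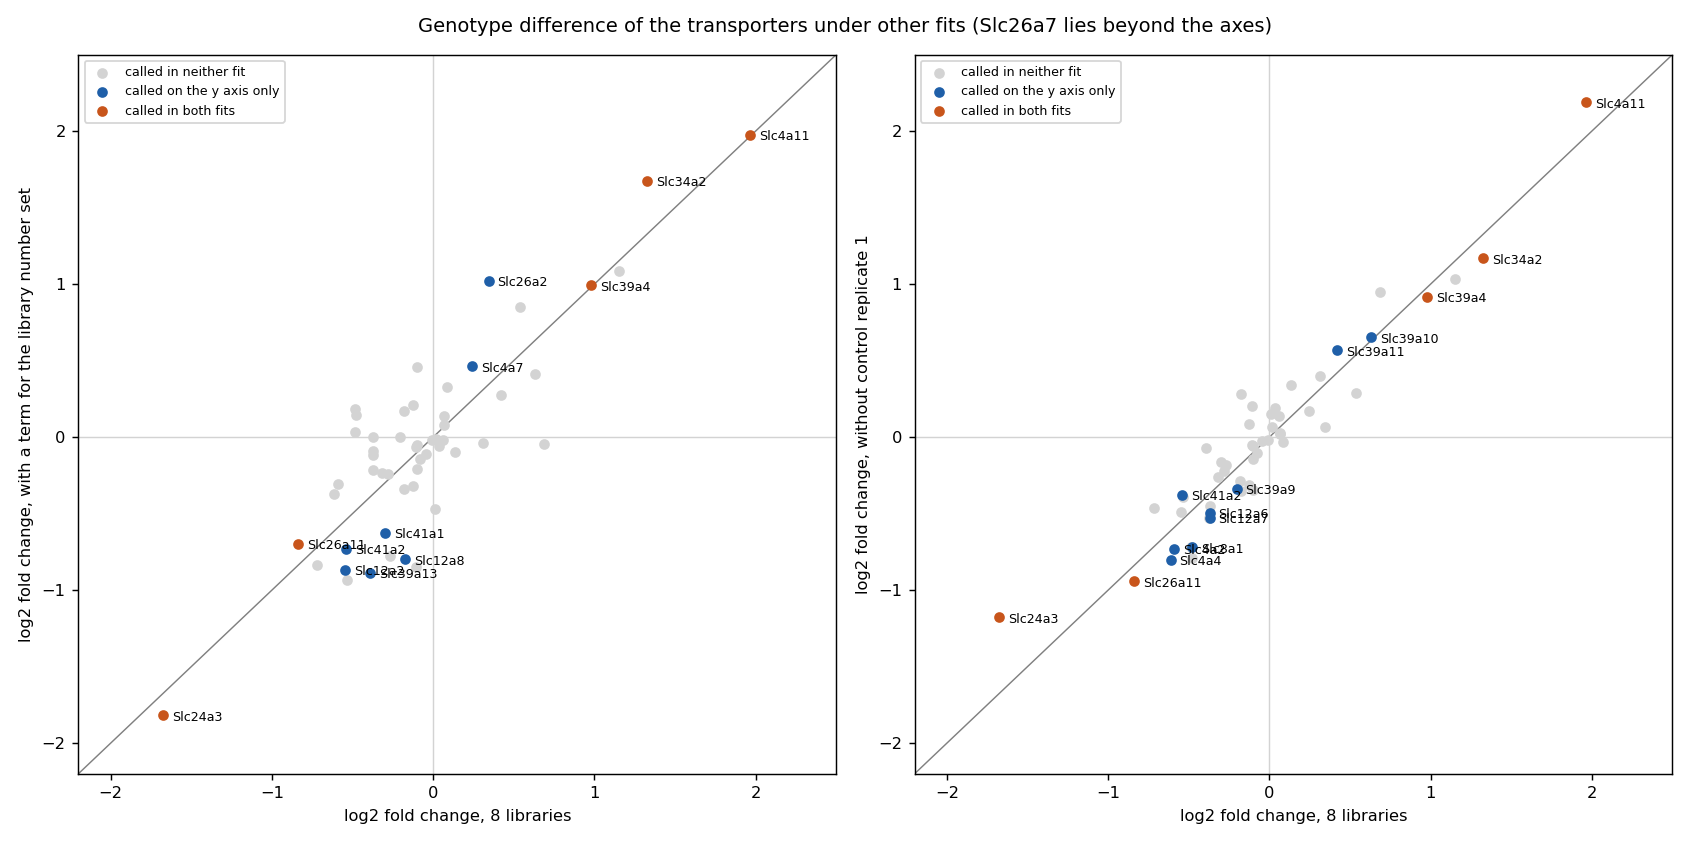
Log2 fold change of 53 of the 55 tested transporters with all 8 libraries (horizontal axis) against that with the number set as a term (left) and that without control replicate 1 (right, vertical axes); points are genes, coloured by the fits that call them, and the line marks equal values. Slc26a7 (4.54) lies beyond the axes and is not drawn; Slc8a1 moves from -0.48 to 0.04 with the set term.

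The partner lists hold 86 genes for channels, pumps, regulators and metal proteins that work with these carriers, of which 76 were tested. Of these 5 rose and 3 fell, 10.5% in all against 12.1% of all genes tested. Of the 21 metal handling genes tested, Steap4, a metalloreductase for iron and copper, rose from 2.41 to 9.79 CPM (2.02 ± 0.26, adjusted p = 0.0018). The iron and metal importer Slc11a2 (DMT1), which belongs to this list and to that of near relatives, measured 28.8, 46.5, 44.1 and 39.7 CPM in controls and 75.7, 69.1, 184 and 65.8 CPM in Ccna2-KO libraries. All Ccna2-KO libraries were above all controls (1.31 ± 0.33, adjusted p = 0.0340), and the call was lost without any 1 of the 4 controls or Ccna2-KO replicate 1 (adjusted p up to 0.0860) and with the number set as a term (1.26, adjusted p = 0.124). The metallothionein genes, whose products bind zinc, did not pass: Mt1 had -0.14 (adjusted p = 0.739) and Mt2 had 0.88 ± 0.32 (adjusted p = 0.107). Without control replicate 1 Mt2 was called at 1.25 with adjusted p = 0.0039. Of 19 tested chloride, sodium and bicarbonate partners, the carbonic anhydrase genes Car2 (832 to 1206 CPM, 0.54 ± 0.11, adjusted p = 0.0141) and Car13 (0.49 ± 0.13, adjusted p = 0.0389) rose. The potassium channel gene Kcnq1 fell from 78.4 to 49.9 CPM (-0.65 ± 0.17, adjusted p = 0.0405). The call of Car2 was lost without Ccna2-KO replicate 3 (adjusted p = 0.0539). Those of Car13 and Kcnq1 were lost without 6 of the 8 libraries taken singly, with adjusted p up to 0.0957 and 0.0989.

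Of the 20 tested regulators of these carriers, Chp2, a partner of sodium-proton exchangers, rose from 135 to 233 CPM (0.79 ± 0.18, adjusted p = 0.0219). The kinase gene Wnk2, from the family that regulates cation-chloride cotransporters, fell from 17.6 to 7.48 CPM (-1.23 ± 0.17, adjusted p = 0.0027). The call of Chp2 was lost without control replicate 4 or Ccna2-KO replicate 1 (adjusted p up to 0.0671). Of the 16 tested calcium, magnesium and phosphate partners, 1 fell: Cnnm1, of a family linked to magnesium transport (4.51 to 1.99 CPM, -1.18 ± 0.26, adjusted p = 0.0195). It was lost without control replicate 2 or 4 or without Ccna2-KO replicate 1 or 2 (adjusted p up to 0.0685).

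The other 22 transporters had too few counts to be tested, 0 to 74 over all 8 libraries (median 14.5) and at most 0.687 CPM. They were Slc12a1, Slc12a3, Slc12a5, Slc24a1, Slc24a2, Slc24a4, Slc24a5, Slc26a4, Slc26a5, Slc26a8, Slc26a9, Slc30a2, Slc30a3, Slc30a8, Slc34a3, Slc39a2, Slc39a12, Slc4a1, Slc4a5, Slc4a10, Slc8a2 and Slc8a3. Slc34a3 had no counts in any library, which does not show that it is absent. Slc4a1, the anion exchanger of red cells (band 3), had 0, 0, 1 and 1 counts in controls and 0, 1, 21 and 4 counts in Ccna2-KO libraries. The ratio of the summed 2 and 26 counts was 12.9 after scaling, with a 95% exact counting interval of 3.22 to 112, and Ccna2-KO replicate 3 held 21 of the 26. The 7 erythroid markers summed to 1368 CPM in that library, 1201 in Ccna2-KO replicate 4, 180 and 291 in replicates 2 and 1, and 176 to 312 in controls.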

How the data were processed

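RNA of 8 libraries was compared, 4 labelled Ccna2-KO and 4 control, grouped and numbered by their labels. The authors deposited a table of estimated counts per RefSeq transcript. The submitters' processing notes name kallisto, with no version, and GRCm38 (mm10). Transcript values were added up by symbol and then rounded. The 687 of 107193 transcripts with no symbol (3.19% to 5.51% of counts) were left out, leaving 25960324 to 33028620 counts per library. No 2 libraries held the same counts within sampling noise (lowest chi-square per degree of freedom 18.7). Genotype was tested with edgeR 4.0.16 in R 4.3.3 (default low count filter, TMM, robust quasi-likelihood F test), adjusted by Benjamini and Hochberg over 15893 genes at 0.05. CPM used TMM-scaled sizes. Single transcripts were tested likewise over 38384. In simulated counts of 15649 genes, the test found 63% of the 100 genes given a log2 change of 1. It found 90% of the 100 given a log2 change of 2, and 6.13% of its calls were wrong. Only genes above a minimum mean count were given a change, and the simulation held no number set effect and no deviating library. These rates may therefore not hold for the measured libraries or for genes with few counts. Gene positions are from the RefSeq annotation of GRCm38.p6, and exon overlaps and transcript lengths from GENCODE on GRCm38.

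The transporters and lists were chosen with earlier results of these data known. The named genes are the called transporters, others with unadjusted p under 0.05 or a log2 change of at least 1, the most abundant of each family and, for each partner list, the called genes and those with the lowest adjusted p. A gene that this rule takes is not reported here, though it stays in the counts. A few further ones were named for their role or layout after their values were seen. The alternatives were upper quartile and RLE scaling, omission of the filter, a 1 CPM filter, non-robust estimates, DESeq2 1.42.0, limma 3.58.1 voom, a replicate block, a number set term and each library left out.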

Additional observations from a re-analysis of the deposited data

Results flagged for a closer look

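For Ccna2 and the 20 transporters that the naming rule takes, 42 groups of 4 libraries were checked for a library set far from its 3 companions, by a Dixon ratio above its 95% critical value, which chance alone exceeds in about 1 group in 20. Slc30a4, a vesicular zinc carrier, measured 88.5 CPM in control replicate 1 and 161 to 165 CPM in the other controls. Slc39a10, a zinc importer, measured 9.65 CPM in Ccna2-KO replicate 4 and 15.1 to 15.9 CPM in the other libraries of its group. Slc39a4 (ZIP4) measured 746 CPM in Ccna2-KO replicate 3 and 513 to 530 CPM in the others. The anion exchanger gene Slc4a3 measured 0.876 CPM in Ccna2-KO replicate 1 and 0.392 to 0.468 CPM in the others. These 4 values came from 4 different genes and from 4 different libraries.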

How the results depend on the processing

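The number of transporters called higher was 4 and called lower 2 with RLE scaling, upper quartile scaling, no filter and non-robust estimates, as with all settings at their default. The higher count was 2 to 6 with single libraries left out, and it was 2 without control replicate 4 and 2 without Ccna2-KO replicate 1. The lower count was 1 with the 1 CPM filter, 7 with the number set term, 5 in DESeq2 and 1 in voom. It was 1 to 10 with single libraries left out, and it was 10 without control replicate 1. The share of all genes called moved as well. With single libraries left out, 5.36% to 29.1% of the transporters were called in either direction, against 6.05% to 28.5% of all genes. The shares were 8.89% against 13.3% with the 1 CPM filter and 9.09% against 12.1% in voom. They were 23.6% against 18.2% with the set term and 20% against 18.6% in DESeq2. Of the 6 called transporters the 1 CPM filter kept 4 in the test, all still called. The partner genes called numbered 8 by default, 25 with the set term (32.9% of those tested, against 18.2% of all genes), 16 in DESeq2 (21.1% against 18.6%) and 3 to 17 with single libraries left out (3.90% to 22.4%, against 6.05% to 28.5%). Ccna2 ranged from -0.58 to 0.24 with single libraries left out and turned above 0 without control replicate 1. With the number set as a term Slc30a4 turned to 0.17 and Slc8a1 to 0.036. Slc9a2 ranged from -0.033 to 0.20 with single libraries left out and fell below 0 without control replicate 1 or Ccna2-KO replicate 4. In the fit with a replicate block the higher count stayed at 4, the lower count was 0 (Slc26a11 lost at 0.0645, Slc24a3 at 0.117), and 3 partner genes (3.95%) were called, against 6.21% of all genes. With group means removed, same-numbered libraries correlated at -0.07, -0.35, -0.26 and 0.15, which shows no pairing by number. As control replicate 1 stood apart from the other controls, this check cannot exclude a pairing. The blocked values are given here only. The cause of these changes was not tested. With 4 libraries a group, the smallest p of an exact two-sided permutation test is 0.0286, and transporters under about 1 CPM rest on few counts.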
